A study of Mus musculus with 16 samples.

Results

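The Ifi200 family of DNA sensors is a group of close gene copies that lie side by side on mouse chromosome 1. The 8 members described here, Ifi203, Ifi204, Ifi207, Ifi209, Ifi211, Ifi213, Mndal and Aim2, were taken by gene name from a table of 55385 genes. Their list was drawn up with earlier results of these data known, and it leaves out 6 other Ifi200 genes of the table. The 8 members were followed in microglia, the resident immune cells of the retina, before and after crush of the optic nerve. This crush is an injury to the axons of retinal ganglion cells. Cells were sorted by EGFP from the retina of the Iba1-EGFP strain, where the Iba1 (Aif1) promoter drives EGFP, for bulk RNA sequencing. The 4 groups of 4 libraries were untreated mice of 15 weeks of age (day 0), mice of 13 weeks at day 2 and at day 4 after the crush, and mice of 16 weeks at day 7. All 16 libraries came from that strain, and the untreated group is a day 0 control without a sham operation named in the labels. Age and day cannot be told apart except between days 2 and 4. Whether the 4 libraries of a day stem from different animals is not stated in the labels, so a p-value reflects the spread between libraries, and this may be technical.

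Proteins of this family carry a HIN domain, which binds DNA, a pyrin domain, which joins other proteins, or both. Aim2 binds double-stranded DNA in the cytosol and recruits the adaptor ASC (Pycard) into an inflammasome that activates caspase-1, while Ifi204 (p204) is known as a sensor that signals through STING to type I interferon genes. Many of the genes are themselves induced by interferon, and in microglia they are among the genes of the interferon-responsive state.

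Total reads ranged from 8647276 to 15708302 per library, and 9315 to 16522 genes reached 1 FPKM (fragments scaled by gene length and by the reads of the library). All 8 microglia markers were present, and their levels varied. Cx3cr1 was between 113.2 and 441.1 FPKM over the 16 libraries, with 249.8 to 295.7 at day 4 and 113.2 to 166.0 at day 7. Tmem119 ran from 42.5 to 652.8 FPKM and Sall1 from 1.92 to 41.5. The 8 markers summed to medians of 7373, 8455, 5209 and 4781 FPKM at days 0, 2, 4 and 7. The sums at day 0 ran from 2395 to 9942 FPKM and covered the ranges of days 4 and 7. RNA of other retinal cells was present too: the 8 rod markers summed to between 1369 and 9120 FPKM per library. The table lists 0 for all 37 mitochondrial genes in every library, and a 0 is therefore given only as a listed value. In bulk samples, fewer cells of a type and less RNA per cell cannot be told apart.

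The members lie within chr1:173350879-173942672 of GRCm38, a span of 591794 bases. Aim2 is the outermost member at chr1:173350879-173466040 on the plus strand. Ifi209 (chr1:173630917-173647928) is also on the plus strand, and the other 6 members are on the minus strand. Ifi204 (chr1:173747293-173766943) and Ifi211 (chr1:173896345-173913046), the members with the clearest results below, are separated by Mndal (chr1:173849126-173880881) and the pseudogene Ifi203-ps. By the exon positions deposited with the values, the exons of 1 member overlapped those of another gene. That member was Mndal, which shares 118 bases with the pseudogene Gm38050.

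Because the genes are copies, their transcripts share sequence, and the shared part was measured. Each member's transcripts were split into all words of 50 bases, and each word was looked up in all other genes. Aim2 shared none of its words with the family, and 99.3% were its own. Ifi207 shared 5.39%, Ifi203 12.2%, Ifi213 15.6%, Mndal 17.7% and Ifi204 19.2%. Ifi209 shared 33.3%, all with Ifi214, a gene that is no member. Ifi211 stood apart with 72.8% shared: 44.7% of its words were also in Ifi205, 30.1% in Ifi204 and 17.1% in Mndal. The sources used here do not say how the authors assigned reads that match several genes. The read numbers recovered from the table were whole in 12 of 16 libraries for Aim2, in 7 for Ifi209 and in 6 for Ifi213. These include a listed 0, taken as whole, in 1 library of Aim2 and 3 of Ifi213. Read numbers were whole in 0 of 16 for Ifi203, Ifi204, Ifi207, Ifi211 and Mndal. The counts of these 5 genes thus held fractions of reads in every library, and those of the other members in some.

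**Figure D1:**
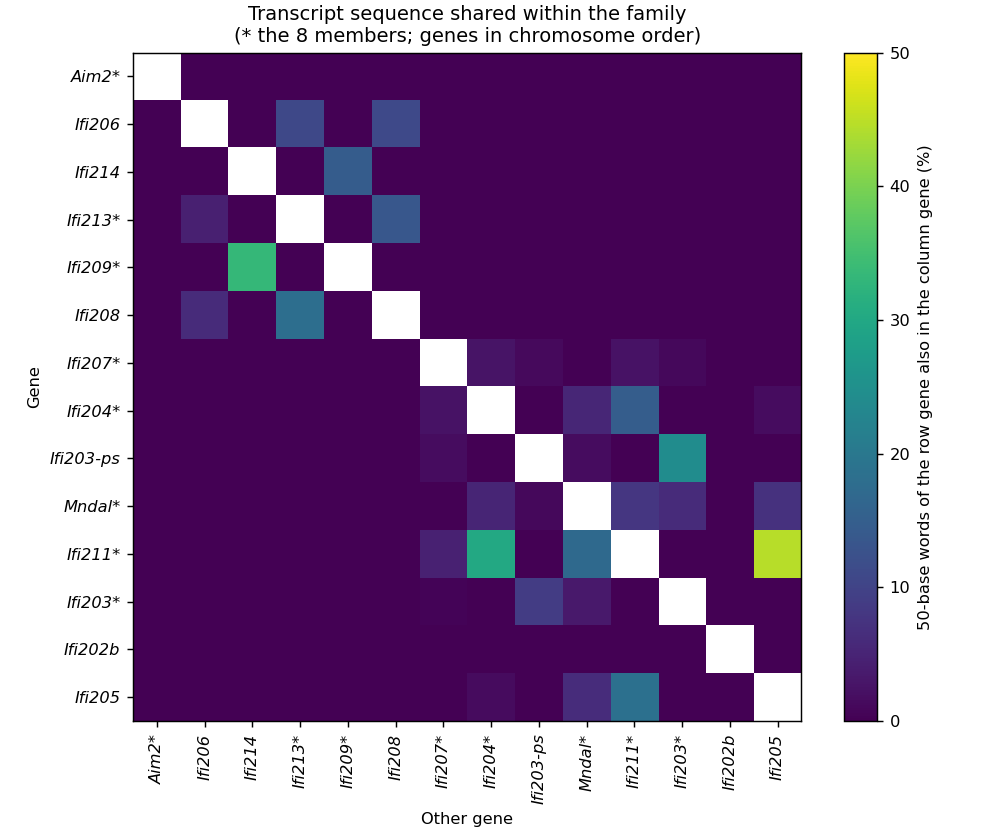
Share of each gene's 50-base transcript words (rows, in percent, colour scale) that also occur in another gene of the family (columns), with genes in chromosome order and the 8 members starred. The brightest cell is Ifi211 with Ifi205 at 44.7%, and the row of Aim2 is at 0 throughout.

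The stretch that Ifi204 and Ifi211 share most is shown because these 2 genes carry the time course. Over 1275 aligned coding bases they were 96.3% identical, and the longest identical run was 223 bases, at positions 201 to 423 of both coding sequences. Capitals mark the identical run in the GENCODE M21 transcripts, and the 15 bases on either side are in lower case.
Ifi204: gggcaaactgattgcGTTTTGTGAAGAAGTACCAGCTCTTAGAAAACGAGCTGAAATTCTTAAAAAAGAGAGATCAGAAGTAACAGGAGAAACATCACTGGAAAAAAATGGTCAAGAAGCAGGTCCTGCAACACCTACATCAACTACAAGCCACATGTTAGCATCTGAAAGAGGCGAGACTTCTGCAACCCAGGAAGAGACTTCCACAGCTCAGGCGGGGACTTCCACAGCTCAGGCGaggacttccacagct
Ifi211: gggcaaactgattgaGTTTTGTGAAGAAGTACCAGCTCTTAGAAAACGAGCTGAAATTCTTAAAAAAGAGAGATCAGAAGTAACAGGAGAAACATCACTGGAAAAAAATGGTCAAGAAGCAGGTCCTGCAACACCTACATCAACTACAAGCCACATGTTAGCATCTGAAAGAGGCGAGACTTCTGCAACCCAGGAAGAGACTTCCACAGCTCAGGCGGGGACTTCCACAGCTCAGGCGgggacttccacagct
A read that falls within the capitals fits both genes equally. Ifi209 and Ifi214 share a run of 253 bases, at positions 279 to 531 of both coding sequences, and the longest run of any pair was the 495 bases that Ifi211 shares with Ifi205. The run of Ifi209 is shown because it bears on the batch difference described below.
Ifi209: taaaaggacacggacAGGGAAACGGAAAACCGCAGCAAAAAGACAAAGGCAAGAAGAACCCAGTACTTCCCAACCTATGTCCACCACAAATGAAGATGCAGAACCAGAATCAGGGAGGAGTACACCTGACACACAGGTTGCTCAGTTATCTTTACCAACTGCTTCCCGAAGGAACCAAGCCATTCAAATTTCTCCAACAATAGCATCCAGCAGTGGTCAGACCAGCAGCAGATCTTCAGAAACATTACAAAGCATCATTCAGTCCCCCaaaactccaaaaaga

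Upstream sequence was compared among the members because some of them moved together. The interferon-stimulated response element, the site of the interferon-activated factor ISGF3, was searched on both strands as GAAA, any 2 bases and GAAA again, in the 250 bases before each start site of the RefSeq promoter table (GRCm38.p6). It was present in 2.98% of all 32851 promoters and in 2.80% of the 11301 promoters of tested genes. A match is only a match of letters. The table had 9 start sites for 7 members, and Ifi204 has no entry. Ifi211, Ifi207, Ifi213 and Mndal held a match before every start site in the table, and Ifi203 before 1 of its 2 start sites. Outside the members, Ifi205, Ifi206, Ifi208 and Ifi214 also held a match, and Ifi202b did not. The genes are copies, so these matches are not independent of each other. In Ifi207, Ifi213, Ifi203 and the upstream start of Mndal the letters were GAAATCGAAA, beginning 41, 73, 35 and 36 bases before the start site. In Ifi211 they were GAAATTGAAA, beginning 37 bases before it. Capitals mark the match.
Ifi211 (chr1:173913047-173913296, minus strand): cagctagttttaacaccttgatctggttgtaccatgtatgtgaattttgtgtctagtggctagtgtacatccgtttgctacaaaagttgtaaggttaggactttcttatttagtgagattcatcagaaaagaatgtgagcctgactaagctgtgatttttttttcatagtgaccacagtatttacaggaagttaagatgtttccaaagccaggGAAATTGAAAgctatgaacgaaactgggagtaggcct
Ifi207 (chr1:173741810-173742059, minus strand): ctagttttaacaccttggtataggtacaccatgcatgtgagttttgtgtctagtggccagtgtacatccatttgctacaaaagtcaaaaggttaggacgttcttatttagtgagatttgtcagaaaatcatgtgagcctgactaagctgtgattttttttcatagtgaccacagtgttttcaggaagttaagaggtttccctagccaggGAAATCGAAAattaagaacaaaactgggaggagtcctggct
Aim2 and Ifi209 held no such match, which says only that these letters are not in the window. Ifi209 held a match to the NF-kB letters (GGG, any 3 bases, T, any base and CC), GGGAACTTCC, beginning 49 bases before its start site. Ifi203 held a match on the other strand, GGCATTCCCC, beginning 236 bases before its upstream start site. The NF-kB letters were in 14.9% of all promoters. No member window held the GAS letters (TTC, any 3 bases and GAA), present in 7.02% of promoters, and no member window held more than 1 match of the motifs searched.
Aim2 (chr1:173420354-173420603, plus strand): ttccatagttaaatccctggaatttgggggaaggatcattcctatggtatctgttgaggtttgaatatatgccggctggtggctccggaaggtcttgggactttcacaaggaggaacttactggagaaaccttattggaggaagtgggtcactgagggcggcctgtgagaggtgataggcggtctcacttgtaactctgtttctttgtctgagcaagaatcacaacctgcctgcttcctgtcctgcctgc

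Among the members, Ifi204 and Ifi211 rose after the crush. Both passed the test at day 4 and at day 7 and not at day 2, and no member passed in the other direction. Ifi204 measured 4.75, 6.70, 14.5 and 10.5 FPKM in the 4 libraries of day 0, and 20.7, 6.82, 34.7 and 55.6 FPKM at day 2. It measured 47.2, 35.6, 40.0 and 59.8 FPKM at day 4 and 120.3, 65.2, 84.9 and 82.7 FPKM at day 7. Every library of days 4 and 7 was above every library of day 0, those of day 7 were also above all of days 2 and 4, and at day 2 replicate 2 stayed within the range of day 0. Mean levels were 9.10 ± 4.29 FPKM at day 0 and 88.3 ± 23.1 FPKM at day 7 (SD, n = 4 libraries each), a ratio of 9.70.

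The change of Ifi204 on the log2(FPKM + 1) scale was 1.36 ± 0.43 (SE) at day 2, with an adjusted p of 0.250 by limma and the Benjamini-Hochberg method over all 14795 genes tested. At day 4 it was 2.28 ± 0.43 (limma adjusted p = 0.00820), and at day 7 it was 3.21 ± 0.43 (adjusted p = 0.00517). The days ordered as 0, 2, 4 and 7, but neighbours in that order did not differ past the threshold: day 4 against day 2 had an adjusted p of 0.428 and day 7 against day 4 of 0.297 in limma. By p-value, Ifi204 was gene 6 of 14795 at day 7. With only the 8 libraries of days 0 and 7 in the limma fit, neither Ifi204 nor Ifi211 passed at day 7 (adjusted p = 0.0556 for each). With limma voom on estimated reads Ifi204 did not pass at day 4 (adjusted p = 0.0605) or day 7 (0.0699), while Ifi211 passed at both (0.0370 and 0.0211).

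Ifi211, a family member with a pyrin and a HIN domain, also rose, at a lower level. Its values were 5.85, 1.47, 2.57 and 6.11 FPKM at day 0 and 15.6, 5.40, 8.14 and 24.5 FPKM at day 2. They were 17.98, 36.0, 17.0 and 22.7 FPKM at day 4 and 52.2, 43.9, 64.8 and 55.2 FPKM at day 7. The day 7 libraries lay above all 12 libraries of the other days, and those of day 4 above all of day 0. At day 2 replicate 2 was within the range of day 0. The change was 1.46 ± 0.46 (SE) at day 2 (limma adjusted p = 0.257), 2.36 ± 0.46 at day 4 (adjusted p = 0.0105) and 3.58 ± 0.46 at day 7 (adjusted p = 0.00517). The mean rose from 4.00 ± 2.33 to 54.0 ± 8.61 FPKM between day 0 and day 7, a ratio of 13.5, and Ifi211 was gene 4 by p-value at day 7.

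**Figure D2:**
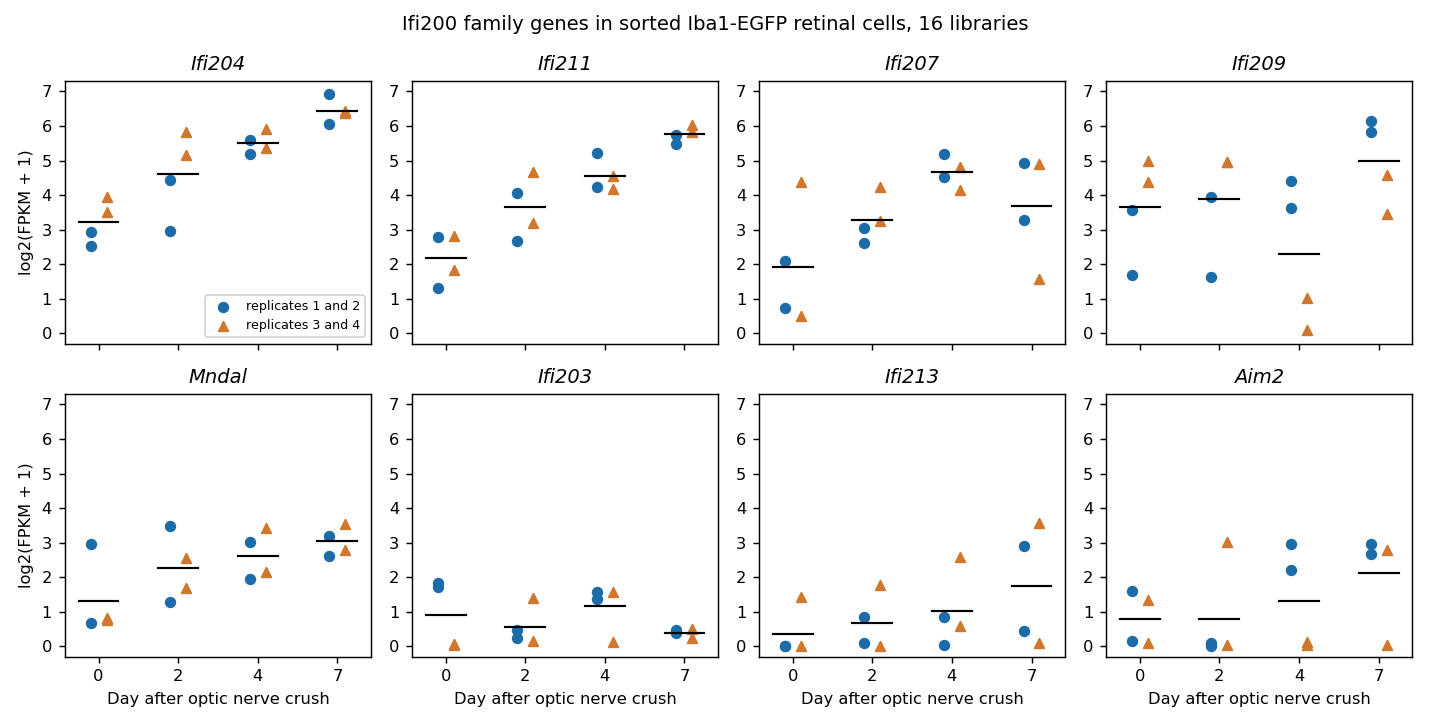
Level of each member as log2(FPKM + 1) against day, with 1 point per library (circles, replicates 1 and 2; triangles, replicates 3 and 4) and a line at the mean of the day. For Ifi204 and Ifi211 the libraries of days 4 and 7 are all above those of day 0, and the day 4 points of Ifi209 split by symbol.

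All 8 members passed the filter of 1 FPKM in at least 4 libraries. No member passed the test at day 2, where 0.311% of all tested genes did (limma adjusted p under 0.05). The lowest member adjusted p there was 0.250, and 2 of 8 members had an unadjusted p under 0.05, as did 9.73% of all tested genes. At day 4, 2 of 8 members passed, against a background of 5.34% of genes, and at day 7, 2 of 8 passed against 0.406%. At an unadjusted p under 0.05 there were 3 of 8 members on each of these days, against 20.9% and 12.1% of genes. The counts over all genes rest on single libraries. The 790 calls of day 4 became 393, 267 and 499 without replicates 1, 2 and 3 of day 4. The 60 calls of day 7 became 29, 17, 24 and 16 without replicates 1 to 4 of day 7, and 27 and 30 without replicates 1 and 2 of day 0. The 46 calls of day 2 became 17, 23, 11 and 8 without replicates 1 to 4 of day 2, 18 without replicate 2 of day 0 and 77 without its replicate 3. Higher calls alone made up 4.62% of genes at day 4 and 0.27% at day 7. Libraries that did not overlap, all 4 later above all 4 of day 0, were found for Ifi204 and Ifi211 at days 4 and 7, where 12.6% and 2.51% of tested genes showed this, and for 0 members at day 2 (3.37% of genes). The median change of the 8 members was 0.63, 0.98 and 1.56 at days 2, 4 and 7, and that of all tested genes was 0.04, 0.16 and -0.07. Changes were above 0 for 6, 7 and 7 of the members. The 3 comparisons share the day 0 libraries.

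Between injured days no member passed in the limma fit. The lowest adjusted p was 0.428 for day 4 against day 2 (background 0.453%), 0.197 for day 7 against day 4 (1.63%) and 0.101 for day 7 against day 2 (0.0946%). Higher calls alone were 0.433%, 0.128% and 0.0473% of genes. At an unadjusted p under 0.05 there were 1, 3 and 2 of the 8 members, against 11.4%, 16.3% and 9.18% of genes. All 4 day 7 libraries of Ifi204 and Ifi211 were above all of day 4 and all of day 2, which held for 2.23% and 1.8% of tested genes, and 0 members had all day 4 libraries above day 2 (7.83% of genes). Ifi211 had the lowest value in the last of these, with a change of 2.12 ± 0.46 (SE), and Ifi204 followed with 1.85 ± 0.43 and an adjusted p of 0.134. In the F test over the 4 days, Ifi204 (adjusted p = 0.00475) and Ifi211 (adjusted p = 0.00470) passed, and 2.89% of all genes did. These shares also moved with single libraries: over the 16 fits without 1 library they ran from 0.0135% to 0.703%, from 0.419% to 1.73% and from 0.00676% to 0.155% for the 3 comparisons between injured days, and from 1.01% to 3.45% in the F test.

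**Figure D3:**
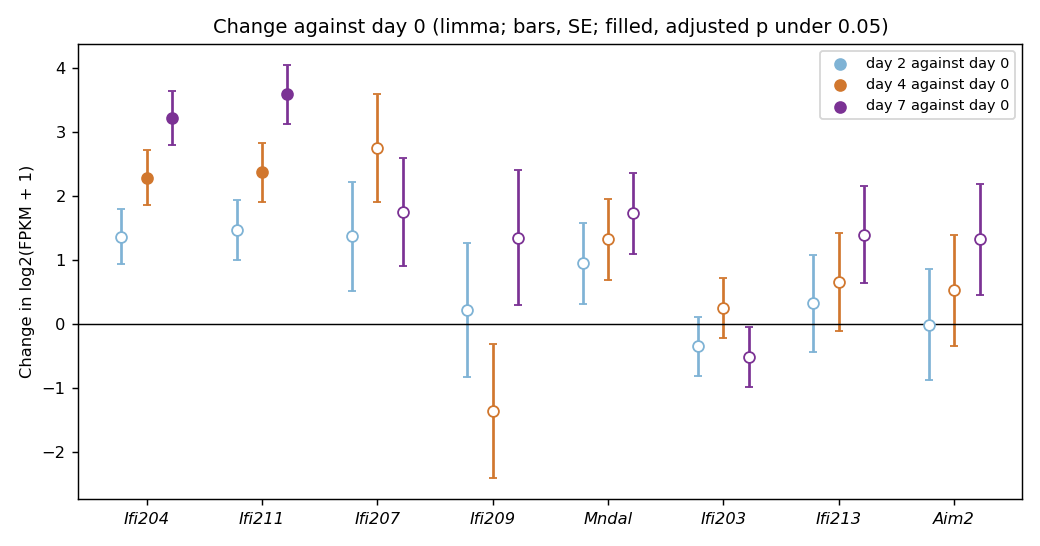
Change of each member against day 0 on the log2(FPKM + 1) scale at days 2, 4 and 7, as fitted by limma, with bars of 1 SE and filled points for adjusted p under 0.05. The filled points are those of Ifi204 and Ifi211 at days 4 and 7, and the bars of Ifi209 are the widest.

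In both batches the fitted changes of these genes were above 0. The first 4 digits of a code in the sample titles, taken here as the batch, set replicates 1 and 2 apart from replicates 3 and 4 of every day. No library of day 7 shared its full code with a library of day 0. Day 4 shared it with day 0 in replicates 1 and 2 only, and day 2 in replicates 3 and 4 only. With the full code in the limma fit, Ifi204 changed by 3.98 and Ifi211 by 4.05 at day 7 (adjusted p = 0.0145 and 0.0455). In a limma fit with a day by batch interaction, Ifi204 changed by 3.75 in batch 1 and 2.67 in batch 2 at day 7 (adjusted p = 0.0366 and 0.0379), and by 2.66 and 1.91 at day 4 (0.0243 and 0.0955). Ifi211 changed by 3.57 and 3.59 at day 7 (0.119 and 0.0379), and by 2.69 and 2.04 at day 4 (0.0643 and 0.164). The difference between the batches did not pass for either gene at these days (adjusted interaction p from 0.712 to 0.998). Each batch holds 2 libraries per day, and these tests rest on them.

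The markers of other cells moved with day as well. The 10 bipolar cell markers summed to 52.5 to 404.9 FPKM at day 0, 3.99 to 51.3 at day 4 and 84.7 to 398.6 at day 7, so at day 4 they were below every day 0 library. With the bipolar and Mueller glia markers as a covariate, the day 4 changes were 2.34 for Ifi204 and 2.45 for Ifi211, and neither passed (limma adjusted p = 0.208 and 0.226). At day 7 both genes passed in it, with changes of 3.22 and 3.60 (adjusted p = 0.0120 for each).

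Monocytes and border-associated macrophages can also use the Iba1 promoter. The 8 monocyte markers summed to 6.43 to 24.03 FPKM at day 7, against 0.411 to 42.9 at day 0. The median sums were 6.45, 3.82, 6.12 and 19.8 FPKM at days 0, 2, 4 and 7. Of the 8 markers, 2 reached 1 FPKM in at least 4 libraries. Ccr2, a defining monocyte marker, was at most 0.180 FPKM in any library. Plac8 was 6.18 to 16.8 FPKM at day 7 and 0.0243 to 0.720 FPKM at day 0. With the batch means removed, Plac8 was among the 5 non-member genes most like Ifi211 over the 16 libraries (Pearson r = 0.84). The 7 markers of border-associated macrophages summed to 20.4 to 91.6 FPKM at day 7 and 37.1 to 255.2 at day 0. At days 2 and 4 they summed to 69.7 to 214.6 and 90.6 to 364.3 FPKM. Their median sums were 53.2, 162.4, 130.8 and 41.3 FPKM at days 0, 2, 4 and 7. The part of these cells in the rise of Ifi204 and Ifi211 was not tested.

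The shared sequence bears on the pair itself. Ifi211 reads per Ifi204 read ranged from 0.0890 to 0.617 at day 0, from 0.118 to 0.397 at day 2, from 0.190 to 0.508 at day 4 and from 0.218 to 0.382 at day 7. The ratio was therefore not fixed, and it varied less between the libraries of day 7 than between those of day 0. Ifi205, the gene with which Ifi211 shares its longest run, gave 0.0553 to 0.370 reads per Ifi211 read at day 0 and 0.314 to 0.397 at day 7. How much of each gene's change came from reads that fit another copy was not tested.

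Ifi205 is a further HIN gene of the cluster and is no member. It was 0.925, 0.161, 0.0606 and 0.920 FPKM at day 0 and 8.85, 7.45, 8.69 and 9.04 FPKM at day 7. The day 7 libraries were all above those of day 0, and the means were 0.517 ± 0.471 and 8.51 ± 0.720 FPKM (SD, n = 4). The change passed at day 7 (limma adjusted p = 0.0223) and was 1.57 at day 4 (adjusted p = 0.0534). Of the 6 other Ifi200 genes that the table names, 3 passed the filter, and Ifi205 at day 7 was their only call. Ifi206 was listed at 0 or was at most 0.342 FPKM at day 0 and measured 22.7, 20.7, 1.66 and 10.3 FPKM at day 7, but its change did not pass (adjusted p = 0.231).

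Ifi207 had the highest fitted change of any member at day 4 and did not pass the test. It measured 0.660, 3.31, 0.420 and 19.7 FPKM at day 0, 7.34, 5.14, 18.01 and 8.49 at day 2, 35.8, 22.1, 16.7 and 27.4 at day 4, and 29.2, 8.78, 28.9 and 1.99 at day 7. Replicate 4 of day 0 was within the range of day 4, and replicates 2 and 4 of day 7 were within the range of day 0. The change was 2.75 ± 0.85 (SE) at day 4 (limma adjusted p = 0.0739) and 1.74 ± 0.85 at day 7 (adjusted p = 0.421). Without replicate 4 of day 0 the day 4 change was 3.60 and passed (adjusted p = 0.0171), and it also passed without replicate 4 of day 7 (adjusted p = 0.0360). The day 4 call of Ifi207 thus turned on which libraries were fitted.

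Ifi209 had the highest mean share of the family's reads at day 0, though not in replicate 1, and its values at day 4 lay apart by batch. In batch 1 it measured 2.22 and 10.9 FPKM at day 0, 20.2 and 11.5 at day 4, and 70.3 and 55.6 at day 7. In batch 2 it measured 30.4 and 19.996 FPKM at day 0, 0.0793 and 1.02 at day 4, and 22.9 and 9.89 at day 7. At day 2 the 4 libraries measured 14.3, 2.09, 30.4 and 30.2 FPKM. The day 4 libraries of batch 2 were the lowest of all 16, while those of batch 1 were above the day 0 libraries of their batch. Over both batches the change was -1.36 ± 1.05 (SE) at day 4 (limma adjusted p = 0.503) and 1.35 ± 1.05 at day 7 (adjusted p = 0.628).

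Within batches the day 4 change of Ifi209 was 1.39 in batch 1 (limma adjusted p = 0.438) and -4.12 in batch 2 (adjusted p = 0.0370). In batch 2 the day 4 and day 0 libraries differed in their full title code, and in batch 1 they did not. With the full code in the limma fit, the day 4 change of Ifi209 was 1.06 (adjusted p = 0.470). The difference between the batches had a p of 4.95e-04 and an adjusted p of 0.174, so it did not pass over all genes. At day 7 the changes were 3.36 and -0.67, and the test of their difference had an adjusted p of 0.299 in limma. Ifi214, which shares the run of 253 bases printed above, gave 0.0995 to 0.152 reads per Ifi209 read at day 0 and 0.122 to 0.281 at day 4. Ifi214 itself was 0.00757 and 0.126 FPKM in the day 4 libraries of batch 2. It was 1.07 and 0.841 FPKM in those of batch 1. Ifi214 was thus also low where Ifi209 was, but reads of the shared run fit both genes. Ifi214 is therefore no separate measure of the batch difference, and the part of shared reads was not tested.

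Mndal encodes a HIN protein of the family. It measured 6.87, 0.600, 0.780 and 0.703 FPKM at day 0 and 5.17, 8.10, 10.7 and 5.88 FPKM at day 7. Replicate 1 of day 0 lay within the day 7 range and the other 3 libraries below it. The changes were 0.94, 1.32 and 1.72 (SE 0.63 for each) at days 2, 4 and 7, with limma adjusted p of 0.669, 0.250 and 0.282. Ifi203 was low throughout, between 0.0280 and 2.60 FPKM over all libraries. It measured 2.29, 2.60, 0.0280 and 0.0414 FPKM at day 0 and 0.297, 0.387, 0.404 and 0.194 FPKM at day 7. The change at day 7 was -0.52 ± 0.46 (limma adjusted p = 0.687), and it was the 1 member with a value below 0 there.

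Aim2, the inflammasome sensor, varied widely within every day. Its values were 0.119, 2.05, 0.0662 and 1.54 FPKM at day 0 and 0.0661, 0, 7.13 and 0.0203 FPKM at day 2. They were 3.59, 6.78, 0.0222 and 0.0818 FPKM at day 4 and 6.86, 5.37, 0.0202 and 5.98 FPKM at day 7. At day 7, 3 libraries were above all of day 0 and replicate 3 was below all of them. The changes were -0.02, 0.52 and 1.32 (SE 0.87 for each) at days 2, 4 and 7, with limma adjusted p of 0.997, 0.780 and 0.559. Aim2 shares no 50-base word with the family, so its level is the least open to reads of other members.

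Ifi213 was scattered in the same way. It was listed at 0 in 2 libraries of day 0 and measured 0.0161 and 1.69 FPKM in the others. At day 7 it measured 0.359, 6.52, 10.8 and 0.0742 FPKM. The day 7 change was 1.39 ± 0.76 (SE; limma adjusted p = 0.476). Aim2 reached 1 FPKM in 8 of 16 libraries, Ifi203 in 6 and Ifi213 in 5, against 16 for Ifi204 and Ifi211.

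Summed over the 8 members, the family had a higher mean read level on each later day, with replicate 2 of day 2 below every day 0 library. The sum of FPKM multiplied by gene length is given in RPM (reads scaled to a common library total). It does not depend on how reads are divided among the members. It does depend on the reads shared with genes outside it, such as Ifi205 and Ifi214. It was 77.9, 103.2, 180.2 and 194.8 at day 0, 217.2, 71.0, 341.1 and 422.5 at day 2, 433.5, 370.0, 269.1 and 410.2 at day 4, and 918.1, 632.8, 713.1 and 478.8 at day 7. The highest sums of day 2, 341.1 and 422.5, were those of replicates 3 and 4, whose titles begin with F in place of M. The day 4 and day 7 libraries were all above those of day 0, and the day 7 libraries were above those of day 4. Mean sums were 139.0 ± 57.2, 263.0 ± 153.3, 370.7 ± 72.6 and 685.7 ± 182.9 RPM (SD, n = 4). Without Ifi204, the member with the most reads, the means were 106.6, 158.1, 208.1 and 371.3. The days then overlapped: replicate 3 of day 4 was 126.6, below replicates 3 and 4 of day 0 (128.7 and 157.5), and replicate 4 of day 7 was 184.2, below the other 3 libraries of day 4. With libraries rescaled by median-of-ratios factors, replicate 3 of day 4 (209.4) was just below replicate 4 of day 0 (210.1). No test was run on a sum over chosen members.

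**Figure D4:**
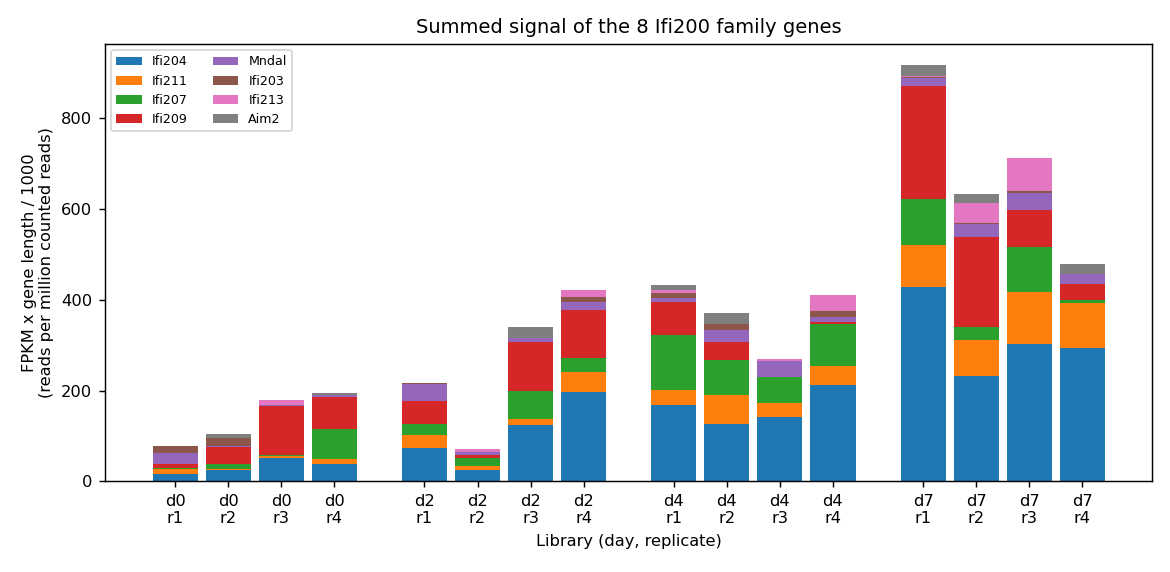
RPM (FPKM multiplied by gene length in kb) of the 8 members, stacked per library, with libraries in order of day and replicate. The bars of day 7 reach 478.8 to 918.1 and those of day 0 77.9 to 194.8, with Ifi204 (lowest segment) as the main part at day 7.

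Ifi209 held the highest mean share of the sum at day 0 and Ifi204 on the later days. Ifi209 made up 35.9% ± 20.4 (SD, n = 4) at day 0, 7.12% ± 7.98 at day 4 and 19.3% ± 11.7 at day 7, although its share at day 0 ran from 10.1% to 59.9%. Ifi204 made up 23.1% ± 3.98 at day 0, 37.8% ± 6.12 at day 2, 44.5% ± 9.38 at day 4 and 46.8% ± 10.6 at day 7. Its lowest share at any injured day, 33.9%, was above its highest at day 0, 28.6%. Ifi211 made up 6.02% ± 5.12 at day 0 and 14.8% ± 4.57 at day 7. By level per length, the order of the means at day 7 was Ifi204, Ifi211, Ifi209 (39.7 ± 28.1 FPKM) and Ifi207 (17.2 ± 13.9 FPKM), then Mndal, Aim2, Ifi213 and Ifi203. Ranges of neighbours overlapped except for Ifi204 and Ifi211, whose lowest and highest libraries were 65.2 and 64.8 FPKM.

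The members did not move as a single group across libraries. With the batch means removed, the correlations of log2(FPKM + 1) over 16 libraries ran from -0.26 to 0.90 for the 28 pairs, with a median of 0.23, and 20 were above 0. The highest were Ifi204 with Ifi211 (0.90) and Mndal with Ifi211 (0.77), pairs that share sequence and libraries. Outside the members, the gene most like Ifi211 was Ifi205 (r = 0.98), followed by Ms4a4c (0.87) and Ifit1 (0.86). Those most like Ifi204 were Ifi205 (0.90), Clec7a (0.90) and Cst7 (0.89). Clec7a is a receptor for fungal glucans and Cst7 a cysteine protease inhibitor. For the family sum they were Cst7 (0.93), Clec7a (0.89) and Ifi205 (0.87). For Ifi209 it was Ifi214 (0.95).

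The genes around the family on the chromosome were mostly below the filter. Of 52 other genes within 500000 bases of the first or last member, 5 passed the filter, and 1 of them, Ifi205, passed the test at day 7. Ackr1, the chemokine-scavenging receptor and a gene of the region outside the family, changed by -0.33 at day 4 (limma adjusted p = 0.869) and 0.61 at day 7 (adjusted p = 0.820).

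Partners of the DNA sensors were examined next. Among 24 genes of DNA sensing through cGAS and STING, 21 were tested, and 0, 2 and 1 passed as higher at days 2, 4 and 7, with 4, 6 and 6 at an unadjusted p under 0.05 in limma. Of all tested genes 0.25%, 4.62% and 0.27% passed as higher on these days, and 9.73%, 20.9% and 12.1% had an unadjusted p under 0.05, and the counts of this and the following lists stand beside these shares. With the bipolar and Mueller glia covariate no gene of any list passed in limma at day 2, at day 4 or at day 7 against day 4, since 0 of all tested genes did (1050, 1919 and 1944 genes at an unadjusted p under 0.05). Zbp1, a sensor of Z-form nucleic acid, was 0 to 4.44 FPKM at day 0, 5.79 to 18.2 at day 4 and 11.7 to 28.6 at day 7, and its changes were 2.38 ± 0.54 (SE; adjusted p = 0.0210) and 2.84 ± 0.54 (adjusted p = 0.0369). Banf1, a DNA-binding protein of the nuclear envelope, was 35.2 to 79.7 FPKM at day 0 and 122.5 to 223.0 at day 4 (change 1.47 ± 0.28, adjusted p = 0.00905). At day 7 Banf1 was back at 44.9 to 78.9 FPKM, and it fell by 1.38 against day 4 (adjusted p = 0.0262).

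The core of that pathway did not pass. Cgas was 0.983 to 7.02 FPKM at day 0 and 2.47 to 6.27 at day 7, a change of 0.61 (limma adjusted p = 0.733). Tmem173, the gene of STING, was 6.66 to 59.9 FPKM at day 0 and 12.9 to 38.7 at day 7, a change of 0.01 (adjusted p = 0.997). Its changes were 0.76 at day 2 and 1.19 at day 4 (limma adjusted p = 0.750 and 0.282). The day 4 libraries of Tmem173 measured 35.5 to 108.3 FPKM. Cgas changed by 0.81 and 0.57 on these days (limma adjusted p = 0.741 and 0.653). Trex1, the DNA exonuclease that limits this pathway, was 11.7 to 49.5 FPKM at day 0 and 77.3 to 235.8 at day 7. All 4 of its day 7 libraries were above day 0, but the change of 2.23 did not pass (adjusted p = 0.0886). The median change of the 21 genes was 0.30, 0.63 and 0.01 at days 2, 4 and 7.

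Of the genes of the inflammasome, the complex that Aim2 can start, 4 passed at day 4, calls that the bipolar and Mueller glia covariate ended. Of 16 genes 12 were tested, and 0, 4 and 0 passed as higher at days 2, 4 and 7, with 3, 5 and 7 at an unadjusted p under 0.05 in limma. Pycard, the adaptor ASC, was 11.6 to 39.5 FPKM at day 0 and 65.5 to 94.2 at day 4 (change 1.87 ± 0.31 SE, adjusted p = 0.00511). Casp4, the sensor of intracellular lipopolysaccharide, changed by 2.68 at day 4 (adjusted p = 0.0274). Il1a was 0 to 48.6 FPKM at day 0 and 165.2 to 299.2 at day 4 (adjusted p = 0.0127), and Il1b was listed at 0 in all 4 libraries of day 0 and was 23.3 to 99.4 FPKM at day 4 (adjusted p = 0.00654). Casp1, the caspase that ASC recruits, was 0 to 16.4 FPKM at day 0 and 24.2 to 34.9 at day 7, and it did not pass (adjusted p = 0.129).

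Among 21 genes of interferons, their receptors and signalling, 15 were tested and 0, 0 and 1 passed at days 2, 4 and 7 (2, 6 and 3 at an unadjusted p under 0.05). Usp18, the ISG15 protease that dampens the interferon receptor, was 8.37 to 14.3 FPKM at day 0 and 36.5 to 100.2 at day 7 (change 2.32 ± 0.45 SE, limma adjusted p = 0.0414). It also passed at day 7 against day 2 (change 3.18, adjusted p = 0.0230). Ifnar2, a subunit of the type I interferon receptor, was 10.8 to 23.5 FPKM at day 0 and 31.6 to 63.4 at day 7, just short of the threshold (adjusted p = 0.0504).

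Other interferon-induced genes were also called higher. Of 45 genes 42 were tested, and 1, 8 and 5 passed as higher at days 2, 4 and 7, while none of these lists had a gene called lower against day 0. Slfn2, a Schlafen protein needed by immune cells, was called on all 3 days, at 0 to 8.46 FPKM on day 0 and 31.9 to 155.8 on day 7. Ifitm3, a membrane protein that blocks virus entry, was 232.5 to 410.6 FPKM at day 0 and 1049 to 2290 at day 7 (change 2.44 ± 0.32 SE, limma adjusted p = 0.00517). The median change of the 42 genes was 0.54, 0.96 and 1.89 at days 2, 4 and 7, beside 0.63, 0.98 and 1.56 for the 8 family members.

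**Figure D5:**
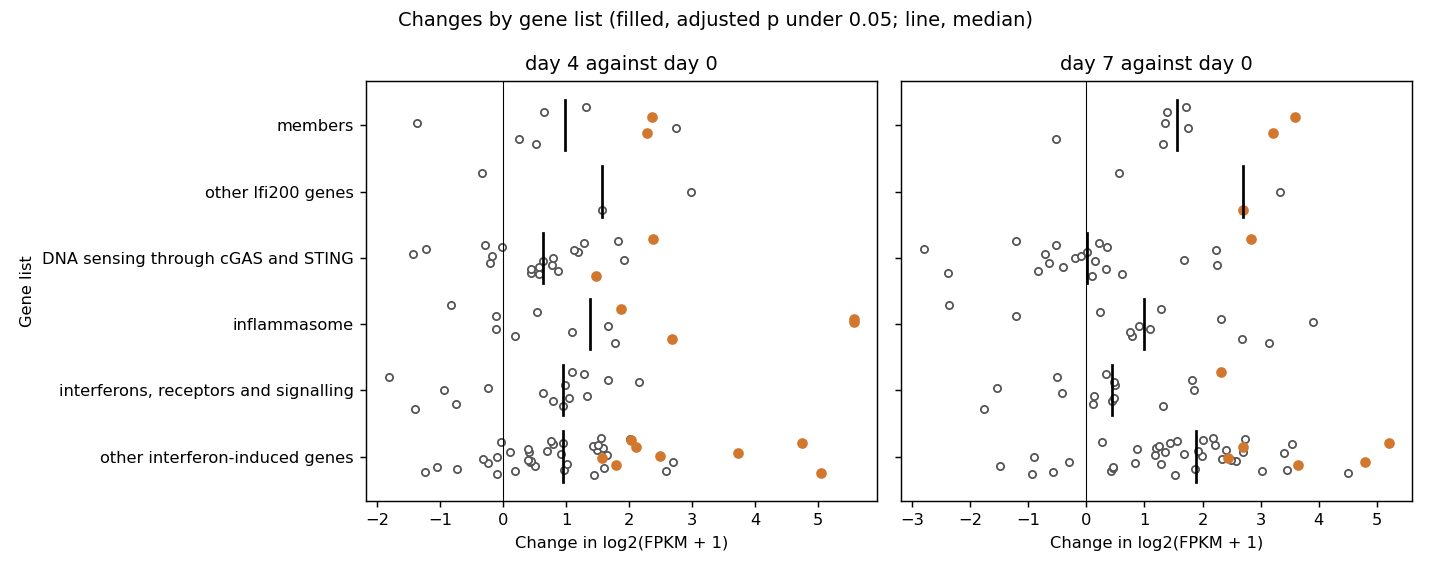
Change of each tested gene on the log2(FPKM + 1) scale at day 4 (left) and day 7 (right) against day 0, by gene list, with filled points for limma adjusted p under 0.05 and a line at the median of the list. The filled points of the members are Ifi204 and Ifi211, and the cGAS and STING list has its day 7 median at 0.01.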

How the data were processed

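RNA of 16 libraries of sorted Iba1-EGFP retinal cells was measured, 4 per day, grouped by the labels. The authors deposited FPKM per gene, made from reads mapped with STAR 2.7.2b and counted with featureCounts 1.6.1 with the build GRCm38.p6, also named mm10 in the submitters' processing notes, per which these tools are given. Libraries were made with Nextera XT, which does not mark strand, per the labels' protocols. The sources used here do not say how reads with several matches were treated. The deposited FPKM multiplied by gene length summed to the same total in each library and came in steps of 0.01 read (tolerance 0.02 steps), which gave the read totals; 46.9% to 63.4% of values above 0 were whole reads. The values were tested as FPKM. A value of 0 in a gene of 1 kb allows up to 0.191 to 0.347 FPKM (3 reads), for counting error only.

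The 14795 genes that reached 1 FPKM in 4 or more libraries were tested with limma 3.58.1 (R 4.3.3, eBayes with a trend) on log2(FPKM + 1), a scale that understates changes of low genes. A single fit held a mean per day and the batch, which was read from a code in the sample titles whose meaning the labels leave unsaid. Titles of replicates 3 and 4 of day 2 begin with F in place of M. Tests were two-sided, adjusted with Benjamini-Hochberg over all genes, with a threshold of 0.05. The fit was checked on simulated data.

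The members and gene lists were chosen with earlier results of these data known. All 8 members are named; other genes are up to 3 called members per list and comparison with the smallest adjusted p and no overlap between days, and likeness took the genes with the highest Pearson r. Casp4, Casp1, Cgas, Tmem173, Trex1, Ifnar2, Ackr1, Ifi206 and the marker genes were named after their values were seen. Of the 11 names of other Ifi200 genes, 5 were not matched in the table. Coding runs and 50-base words came from GENCODE M21 transcripts, identity from a global alignment with gaps left out, and promoters from RefSeq.

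Alternatives were other pseudocounts (0.1 and 5), filters, scaling, batch terms, a replicate block, each library left out, voom and marker covariates. Same-numbered libraries of different days deviated from their day means with correlations of -0.056 to 0.234 over 24 pairs, so numbers were not taken as pairs.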

Additional observations from a re-analysis of the deposited data

Results flagged for a closer look

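In 5 of 36 groups of 4 libraries examined (the 8 members and the family sum on each day), the highest library stood apart from the other 3 by more than the 95% critical value of Dixon's test allows. Chance gives this in about 5% of groups where values are normally spread. The test was run on FPKM and not on the log scale, so that share need not hold here. Aim2 at day 2 was 7.13 FPKM in replicate 3, with the other libraries at most 0.0661. Ifi207 at day 0 was 19.7 FPKM in replicate 4, the library without which its day 4 change passed. Ifi213 was 1.69 FPKM in replicate 3 of day 0 and 4.95 FPKM in replicate 4 of day 4. Mndal at day 0 was 6.87 FPKM in replicate 1. No group of Ifi204, Ifi211 or the family sum was set apart in this way.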

How the results depend on the processing

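Ifi204 and Ifi211 passed at days 4 and 7 in each of the 16 leave-one-out fits (highest limma adjusted p 0.0489), and their direction held under all 15 other settings, with changes of 1.65 to 2.94 at day 4 and 2.67 to 4.05 at day 7. The 2 member calls at day 4 became 0 in batch 1 alone, 0 in batch 2 alone, 1 with voom on estimated reads (Ifi211, adjusted p = 0.0370; Ifi204, 0.0605) and 0 with the bipolar and Mueller glia covariate. The 2 calls at day 7 became 0 in batch 1 alone, 0 in batch 2 alone, 0 with only the 8 libraries compared (adjusted p = 0.0556 for both genes) and 1 with voom (Ifi211, 0.0211). In the F test they became 0, 0, 1 and 3 in batch 1, batch 2, voom and with the full title code (Ifi209 added, adjusted p = 0.0329). A pseudocount of 5 gave 1 call at day 7 against day 2, Ifi211 (adjusted p = 0.0439). Single batches hold fewer samples; for the other settings the cause was not tested. Left-out libraries gave 2 to 3 member calls at day 4.

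With the replicate block, the same 2 members passed at days 4 and 7, while calls over all genes went from 790 to 566 at day 4, 60 to 22 at day 7 and 46 to 30 at day 2. Left-out libraries gave 267 to 955, 16 to 57 and 8 to 77 calls over all genes at days 4, 7 and 2. Among the other settings, counts over all genes that moved by over 1.5 times at day 4 were 270 with median-of-ratios scaling, 308 without a filter, 379 with the full title code, 303 and 0 in batches 1 and 2, 401 with only 8 libraries, 510 with voom and 0 with the bipolar and Mueller glia covariate. At day 7 they were 38 with a pseudocount of 0.1, 13 without a filter, 39 without a batch term, 28 with the full title code, 2 and 0 in batches 1 and 2, 2 with only 8 libraries, 24 with voom and 19 with the rod covariate. At day 2 they were 14 without a filter, 126 with the full title code, 20 and 0 in batches 1 and 2, 1 without the libraries titled F and 0 with the bipolar and Mueller glia covariate. Median-of-ratios scaling moved the median of all genes at day 4 from 0.16 to -0.17 and the share of higher calls from 86.6% to 56.7%; there Ifi204 changed by 1.84 and Ifi211 by 1.95, and both passed.

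The mean family sum without Ifi204 was 208.1 at day 4 and 371.3 at day 7. Values that changed sign were all of uncalled members. Aim2 at day 2 was 0.092 with a pseudocount of 5, 0.67 with the full title code and 0.81 in batch 2, and at day 4 -0.64 in batch 2. Ifi203 at day 2 was 0.33 with the full code, 0.72 in batch 2, 0.0096 with voom and 0.60 with the bipolar and Mueller glia covariate, at day 4 -0.30 in batch 1, and at day 7 0.0046 with the full code and 0.32 in batch 2. Ifi209 at day 2 was -1.44 without the libraries titled F and -1.36 with the covariate, at day 4 1.06 with the full code and 1.39 in batch 1, and at day 7 -0.67 in batch 2. Ifi213 at day 2 was -0.0039 with the full code. Over left-out libraries, Aim2 at day 2 ran from -0.95 to 0.39 and Ifi209 at day 2 from -0.55 to 1.09.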
